A study of Mus musculus with 2 samples.

Results

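Pf4, Ppbp, Gp1bb, Gp9, Itga2b, Itgb3, Plek, Thbs1 and Vwf are genes of the platelet and of its parent cell, the megakaryocyte. They were taken by symbol as known platelet genes, 9 of the 27998 genes in the deposited matrix, and were described across the cell types of the fetal liver, across the erythroid stages and along the surface level of CD41, the protein that Itga2b encodes. The cells came from pooled livers of C57BL/6 mouse embryos at e13.5, carried no engineered allele and received no treatment. Cells that bear Ter119, a marker of maturing red cells, had been partly removed, so the proportions of cell types are not those of the liver. Cells were stained with 10 antibodies that carried DNA barcodes, so that mRNA and surface protein were counted in the same cell (CITE-seq). There was 1 mRNA library and 1 antibody library of the same 7863 cells. Every interval below is therefore a 95% interval for counting error only, and no difference has a replicate check.

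Megakaryocytes build platelets out of their own cytoplasm and fill them with ready-made proteins. Pf4 and Ppbp encode chemokines that are stored in the alpha granules and released when the platelet is activated. Gp1bb and Gp9 encode subunits of the glycoprotein Ib-IX-V complex, which catches von Willebrand factor, the product of Vwf, at a wounded vessel wall. Itga2b and Itgb3 encode the alpha and beta chains of the fibrinogen receptor, integrin αIIbβ3, through which platelets bind to each other. Thbs1 encodes the adhesive granule protein thrombospondin, and Plek encodes pleckstrin, a substrate of protein kinase C. In the embryo CD41 also marks early blood progenitors, and in the mouse fetal liver megakaryocytes arise beside the red cell lineage, with which they share progenitors and factors such as GATA1.

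On GRCm38.p6, the RefSeq release of the mm10 assembly to which the reads were mapped, Ppbp (ENSMUSG00000029372, chr5:90768518-90770063) and Pf4 (ENSMUSG00000029373, chr5:90772435-90773383) are neighbours. Gp9 (ENSMUSG00000030054) lies at chr6:87776131-87779786 and Vwf (ENSMUSG00000001930) at chr6:125552948-125686679. Itga2b (ENSMUSG00000034664, chr11:102453297-102469883), Itgb3 (ENSMUSG00000020689, chr11:104608000-104670476) and Plek (ENSMUSG00000020120, chr11:16971206-17008718) are on chromosome 11. Thbs1 (ENSMUSG00000040152) is at chr2:118111876-118127133. Gp1bb (ENSMUSG00000050761, chr16:18620319-18622403) overlaps Sept5, whose own row held 6 UMIs in all kept cells and 1 in the megakaryocyte-like cells. A UMI (unique molecular identifier) stands for 1 captured mRNA molecule.

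The antibody to CD41 was read through the 12-base barcode tgtccggcaata. The 250 bases upstream of the annotated start were taken from RefSeq for 6 of the 9 genes, and 4 of these windows are printed 5′ to 3′ on the strand of the gene: the neighbours Pf4 and Ppbp, whose counts are compared as a ratio below, Itga2b, which encodes the measured surface protein, and Gp9, whose level varied most clearly along the erythroid stages. Capitals mark the core letters of GATA factor sites (GATAA, or TTATC for the other strand) and of ETS factor sites (GGAAG, or CTTCC for the other strand), and no match overlapped another.
Pf4, chr5:90772185-90772434, plus strand: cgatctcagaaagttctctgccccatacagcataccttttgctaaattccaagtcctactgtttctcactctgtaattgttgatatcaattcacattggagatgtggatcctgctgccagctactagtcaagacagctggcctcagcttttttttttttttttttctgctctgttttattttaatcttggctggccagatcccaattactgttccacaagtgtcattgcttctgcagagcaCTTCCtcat
Ppbp, chr5:90768268-90768517, plus strand: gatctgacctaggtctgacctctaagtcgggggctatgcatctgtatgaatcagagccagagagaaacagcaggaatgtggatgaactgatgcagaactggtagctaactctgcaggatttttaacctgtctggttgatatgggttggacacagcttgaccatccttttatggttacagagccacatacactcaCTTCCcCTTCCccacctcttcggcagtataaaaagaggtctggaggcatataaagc
Itga2b, chr11:102469884-102470133, minus strand: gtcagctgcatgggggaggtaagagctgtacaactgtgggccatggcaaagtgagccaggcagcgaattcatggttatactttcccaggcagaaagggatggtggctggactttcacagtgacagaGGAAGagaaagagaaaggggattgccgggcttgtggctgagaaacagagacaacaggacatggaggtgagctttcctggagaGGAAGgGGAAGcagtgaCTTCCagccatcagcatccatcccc
Gp9, chr6:87777820-87778069, plus strand: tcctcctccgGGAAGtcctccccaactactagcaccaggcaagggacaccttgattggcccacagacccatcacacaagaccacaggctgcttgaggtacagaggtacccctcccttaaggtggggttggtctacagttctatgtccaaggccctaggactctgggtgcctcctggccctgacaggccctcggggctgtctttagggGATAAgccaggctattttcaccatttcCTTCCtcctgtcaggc
The ETS letters occurred in 5 of the 6 windows, with 4 matches in Itga2b, 2 each in Ppbp, Gp1bb and Gp9, 1 in Pf4 and none in Plek. They occurred in 64.1% of all 32851 windows of this length. The GATA letters occurred in 2 of the 6, Gp9 and Plek, against 22.6% of all windows. The Gp9 window lies upstream of the start that the sequence table uses, within the annotated span of the gene. A match is a description of these letters and not evidence of binding.

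The matrix held 58606632 UMIs, and 7244 cells were kept after the quality limits and removal of called doublets, with a median of 5803 UMIs each (2510 to 30099). The cells were grouped into 17 clusters from genes other than the 9, and clusters were called by cell type with the suffix -like only from marker genes other than the 9. The megakaryocyte-like cells were 1 cluster of 299 cells with a median of 7971 UMIs, led by Ifitm1, Rab27b and F2rl2. Of 12 megakaryocyte markers 11 were raised in it, and the twelfth, Tubb1, had 3 UMIs. The cluster also raised 5 of 6 mast cell or basophil markers, and at a finer resolution it separated into 92 megakaryocyte-like and 193 mast or basophil-like cells. The 193 cells raised 6 of 6 mast or basophil markers and also 8 of 12 megakaryocyte markers. Levels are given in CPM, the UMIs of a gene scaled to the total of the cell, averaged over cells. The library tags the 3′ ends of transcripts, and levels are compared between cells for each gene rather than between genes.

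The 9 genes had most of their molecules in these 299 cells. Their share of all UMIs of the gene in kept cells was 91.7% for Pf4, 93.1% for Ppbp, 93.0% for Gp1bb, 90.3% for Itgb3, 88.3% for Thbs1, 77.8% for Plek, 73.0% for Itga2b, 60.2% for Gp9 and 54.9% for Vwf. Gp9, Vwf, Itga2b and Plek were thus the genes with the largest part outside the megakaryocyte-like cells.

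The 184 hepatocyte-like cells, a type that should lack these genes, served as the background, at a median of 12969 UMIs. A gene was counted as higher or lower when the ratio of mean CPM + 10 reached 2 in either direction and at least 50 UMIs were present in the compared cells. All 9 genes were higher in megakaryocyte-like than in hepatocyte-like cells, where 18.3% of 7603 genes were. None of the 9 reached 50 UMIs in the hepatocyte-like cells, so each passed that limit only through the megakaryocyte-like cells. Because that cluster was also named by other megakaryocyte genes, the count is a description. The chemokine Pf4 was at 5635 CPM (5537 to 5734) against 22.1 CPM (15.6 to 30.3), a ratio of 255 (186 to 361). Ppbp was at 1565 CPM against 10.3 CPM, a ratio of 151 (88.8 to 282). When each cell was thinned to 2000 UMIs, 32.4% of megakaryocyte-like cells and 4.35% of hepatocyte-like cells had a Pf4 UMI. Without thinning the shares were 40.8% and 22.8%. The Pf4 of the cluster thus came from a minority of its cells. At the finer resolution, and without thinning, 88 of the 92 megakaryocyte-like cells and 31 of the 193 mast or basophil-like cells had a Pf4 UMI.

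The subunits of both receptors were near or at 0 in the hepatocyte-like cells. Gp1bb was at 449 CPM (421 to 479) in megakaryocyte-like cells and rested on 1 UMI in hepatocyte-like cells. Gp9 was at 360 CPM (333 to 388) against 3 UMIs. Itga2b was at 251 CPM (229 to 274) against 2 UMIs, and its partner Itgb3 at 273 CPM (250 to 297) against 0 UMIs, which allows up to 1.89 CPM and makes the ratio at least 144. Of the remaining genes, Plek was at 409 CPM (382 to 439), Thbs1 at 620 CPM (585 to 655) and Vwf at 74.1 CPM (63.0 to 86.6), and the hepatocyte-like cells held 3, 7 and 1 UMIs of them.

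Outside the megakaryocyte-like cells single genes stood out in other blood cell types. The 82 macrophage-like cells had Pf4 at 678 CPM (604 to 758), and 54.9% of them kept a Pf4 UMI after thinning. This share was larger than in the 299 megakaryocyte-like cells taken whole, which include the mast or basophil-like cells of the finer resolution. The macrophage-like cells had 3 Ppbp UMIs, none of Itgb3 or Vwf, and Plek at 72.2 CPM (48.0 to 104). The 114 myeloid-like cells, led by the neutrophil granule genes Ngp and Camp, had Thbs1 at 61.0 CPM (41.7 to 86.1; 42 UMIs) and Plek at 22.2 CPM (11.2 to 39.4), with Pf4 at 18.3 CPM, within the hepatocyte-like interval. A cluster of 585 cells led by Cd34, Lsp1 and Emb had Plek at 38.6 CPM (32.3 to 45.7; 160 UMIs) and no Vwf UMI, which allows up to 0.936 CPM.

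Erythroid cells held some of the receptor genes at a low level. Committed erythroid progenitors are the stage that precedes terminal maturation, and 1 cluster of 331 cells was named as like them (CEP-like). Other clusters for which the markers of this stage scored best stayed unnamed, so the levels here describe 1 cluster and not the whole stage. In the CEP-like cells Itga2b was at 16.8 CPM (12.1 to 22.7, 54 UMIs) and Gp1bb at 14.2 CPM (8.90 to 21.5, 32 UMIs). Both were above their hepatocyte-like levels of 2 and 1 UMIs, but Itgb3, at 0.959 CPM (0.261 to 2.46; 4 UMIs), was not above the hepatocyte-like limit of 1.89 CPM. In the 2246 cells like erythroid terminal differentiation (ETD-like) Itga2b was at 3.68 CPM and Gp1bb at 2.85 CPM, and Gp9 at 13.3 CPM (11.04 to 15.9), whose interval overlapped that of CEP-like cells at 9.51 CPM (5.80 to 14.7). Per cell the order of Gp9 was the other way, with 0.0614 UMIs in ETD-like and 0.0786 in CEP-like cells.

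**Figure D1:**
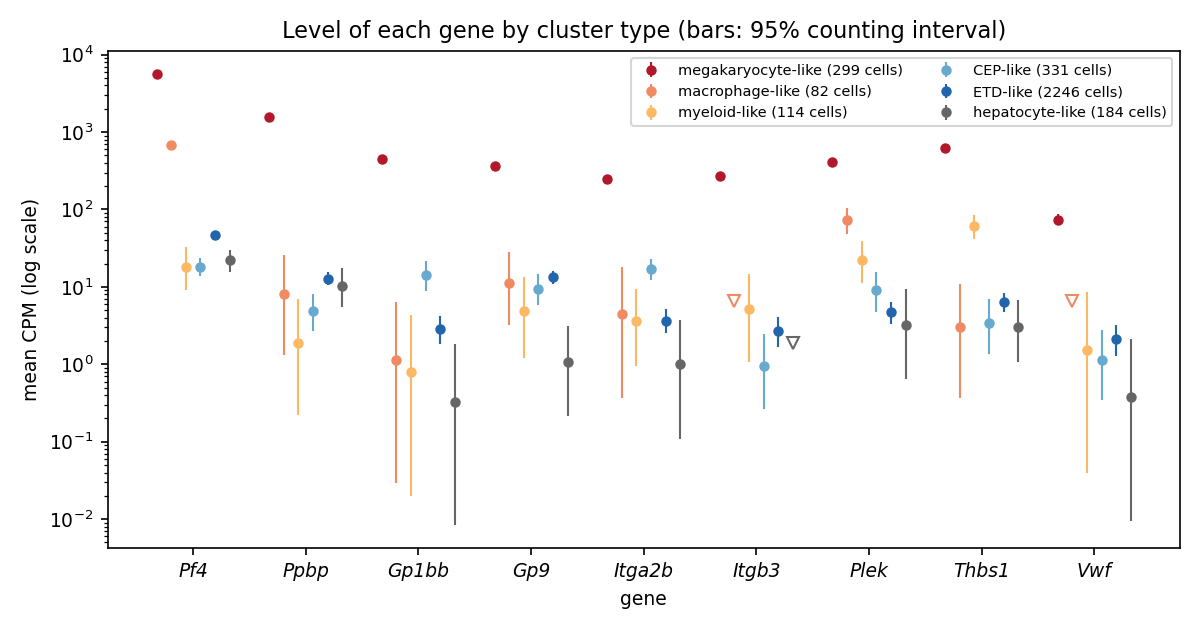
Mean level of each of the 9 genes by cell type, in CPM on a log axis, with 95% counting intervals. Open triangles are the upper limits for types with 0 UMIs of the gene. The megakaryocyte-like point is the highest for each of the 9 genes, and the next highest points are the macrophage-like Pf4 (678 CPM) and Plek (72.2 CPM) and the myeloid-like Thbs1 (61.0 CPM).

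Pf4 and Ppbp, the neighbours on chromosome 5, were counted in like proportion in the megakaryocyte-like, CEP-like and ETD-like cells taken whole, but not in the macrophage-like cells. The number of Pf4 UMIs for each Ppbp UMI was 3.98 (3.85 to 4.11) in megakaryocyte-like, 3.72 in CEP-like, 3.85 in ETD-like and 2.33 (1.37 to 4.10) in hepatocyte-like cells, and ranged from 2.87 to 4.70 over the 6 erythroid stages. It was 7 (1.61 to 63.5) in myeloid-like cells and 8.33 (2.54 to 43.1) in a cluster led by Mest, Sparc and Serpinh1, both on 3 Ppbp UMIs or fewer, and 119 (40.3 to 578) in macrophage-like cells. The part of free RNA in the low levels was not tested. Nor was the proportion even among the megakaryocyte-like cells, where the class of 256 to 511 CD41 counts held 453 Pf4 UMIs and 2 Ppbp UMIs. Per cell, Pf4 was at 0.266 UMIs in hepatocyte-like cells, at 0.143 to 0.225 over the 6 stages and at 4.34 in macrophage-like cells. Of the 95 cells with Pf4 at or above 1000 CPM, 85 were megakaryocyte-like and 8 macrophage-like.

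CD41 protein was highest on the megakaryocyte-like cells among the named types, with a median of 73 antibody counts (quartiles 25 and 415, highest 28778) against 7 over all kept cells. The medians were 43.5 in myeloid-like, 29 in macrophage-like, 13 in hepatocyte-like, 10 in CEP-like and 7 in ETD-like cells. The control IgG, which targets no marker of the panel, was counted in 6.35% of megakaryocyte-like, 20.2% of myeloid-like and 17.1% of macrophage-like cells, against 3.41% of all kept cells. Of the other lineage antibodies on the megakaryocyte-like cells, CD45R, CD3e and Ly6G/6C stood near the level of all kept cells, with medians of 13 against 12, 8 against 8 and 3 against 3, and CD11b was higher, with 11 against 6.

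The order of CD41 protein and Itga2b mRNA differed between types. The myeloid-like and macrophage-like cells, with median CD41 above that of the CEP-like cells, had Itga2b at 3.60 and 4.45 CPM on 4 and 2 UMIs, against 16.8 CPM in CEP-like cells. The 64 cells led by Mest, Sparc and Serpinh1, which raised markers of several types and were left unnamed, had a higher median CD41 than the megakaryocyte-like cells, 132 counts. Their Itga2b was at 22.8 CPM (10.8 to 42.2; 14 UMIs), and their Thbs1, which connective tissue cells also make, at 17.5 CPM (11 UMIs). The same cells also had raised counts of other antibodies, with medians of 109 for CD45R, 47 for CD3e and 36 for Ly6G/6C, and 17.2% of them had control IgG. The part of antibody binding in this result was not tested.

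Along CD41 over all kept cells, the 365 cells at or above the 95th percentile (53 counts or more, CD41-high) were compared with the 3712 at or below the median (7 counts or fewer, CD41-low). All 9 genes were higher in CD41-high cells, where 12.4% of 10172 genes were. Gp1bb and Itgb3 had only 37 UMIs each in the CD41-low cells. They passed the UMI limit only through the CD41-high cells, so their calls are descriptions. Itga2b, the gene of the protein itself, was at 194 CPM against 4.01 CPM, a ratio of 48.4 (37.8 to 62.7). Its partner Itgb3 was at 222 against 1.73 CPM, a ratio of 129 (87.6 to 196). So Itgb3, whose protein no antibody in the panel bound, had the larger ratio, with the lower level in CD41-low cells. The rank correlation (Spearman) of CD41 with CPM over all kept cells was 0.15 for Itgb3 and 0.19 for Itga2b. That of CD41 with the total UMIs of the cell was 0.24.

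The receptor subunit Gp1bb had a ratio of 198 (137 to 295) and Gp9 of 21.5 (18.5 to 24.99), where CD41-low cells still had Gp9 at 13.3 CPM and hepatocyte-like cells at 1.06 CPM. The chemokines had ratios of 167 (152 to 184) for Pf4 and 192 (159 to 235) for Ppbp. Thbs1 had 121 (94.8 to 157), Plek 62.6 (49.96 to 79.3) and Vwf 19.9 (14.9 to 26.9). The 9 genes had a median log2 fold of 4.46 against 0.25 over all genes tested. Megakaryocyte-like cells made up 47.4% of CD41-high and 0.296% of CD41-low cells.

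Within the megakaryocyte-like cells the genes did not rise evenly with CD41. Pf4 was at 118 CPM in the 26 cells with 8 to 15 CD41 counts, 33.9 CPM at 16 to 31, 12.8 CPM at 32 to 63 and 77.6 CPM at 64 to 127. It was then 1486 CPM (1231 to 1779) at 128 to 255 counts, 3242 CPM at 256 to 511, 10693 CPM at 512 to 1023 and 26346 CPM (25879 to 26819) in the 54 cells at 1024 or more. The step lay between the classes of 64 to 127 and 128 to 255 counts. The cluster was a mixture at the finer resolution. Its 193 mast or basophil-like cells (median 41 counts, highest 556) had Pf4 at 64.7 CPM. Its 92 megakaryocyte-like cells (median 1640.5 counts, lowest 13) had Pf4 at 18175 CPM. Of the 99 cells with 38 to 162 counts, 22 held all 125 Pf4 UMIs. The counting intervals leave out such spread between cells. The part of the mixture in the step was not tested.

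Itga2b had a shallower course over the same classes. It was at 105 CPM in the 10 cells with 4 to 7 counts (5 UMIs), between 37.5 and 74.2 CPM in the 4 classes from 8 to 127 counts, at 186 and 189 CPM in the 2 classes from 128 to 511, and at 403 and 940 CPM in the upper 2. Gp1bb and Plek were likewise present below the step, at 41.4 CPM (4 UMIs) and 76.7 CPM (12 UMIs) in the class of 8 to 15 counts, and reached 1866 and 1445 CPM in the top class. Vwf had 2 UMIs in the class of 64 to 127 counts and was at 45.1, 71.0, 159 and 316 CPM in the classes above. Ppbp moved unevenly, with 594 CPM at 128 to 255 counts, 2 UMIs in all at 256 to 511, and 4778 and 7066 CPM in the upper 2. Outside the megakaryocyte-like cells Pf4 was highest, at 190 CPM (156 to 229), in the class of 64 to 127 counts, and Itga2b rested on 3 UMIs in the 5 cells of the top class.

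**Figure D2:**
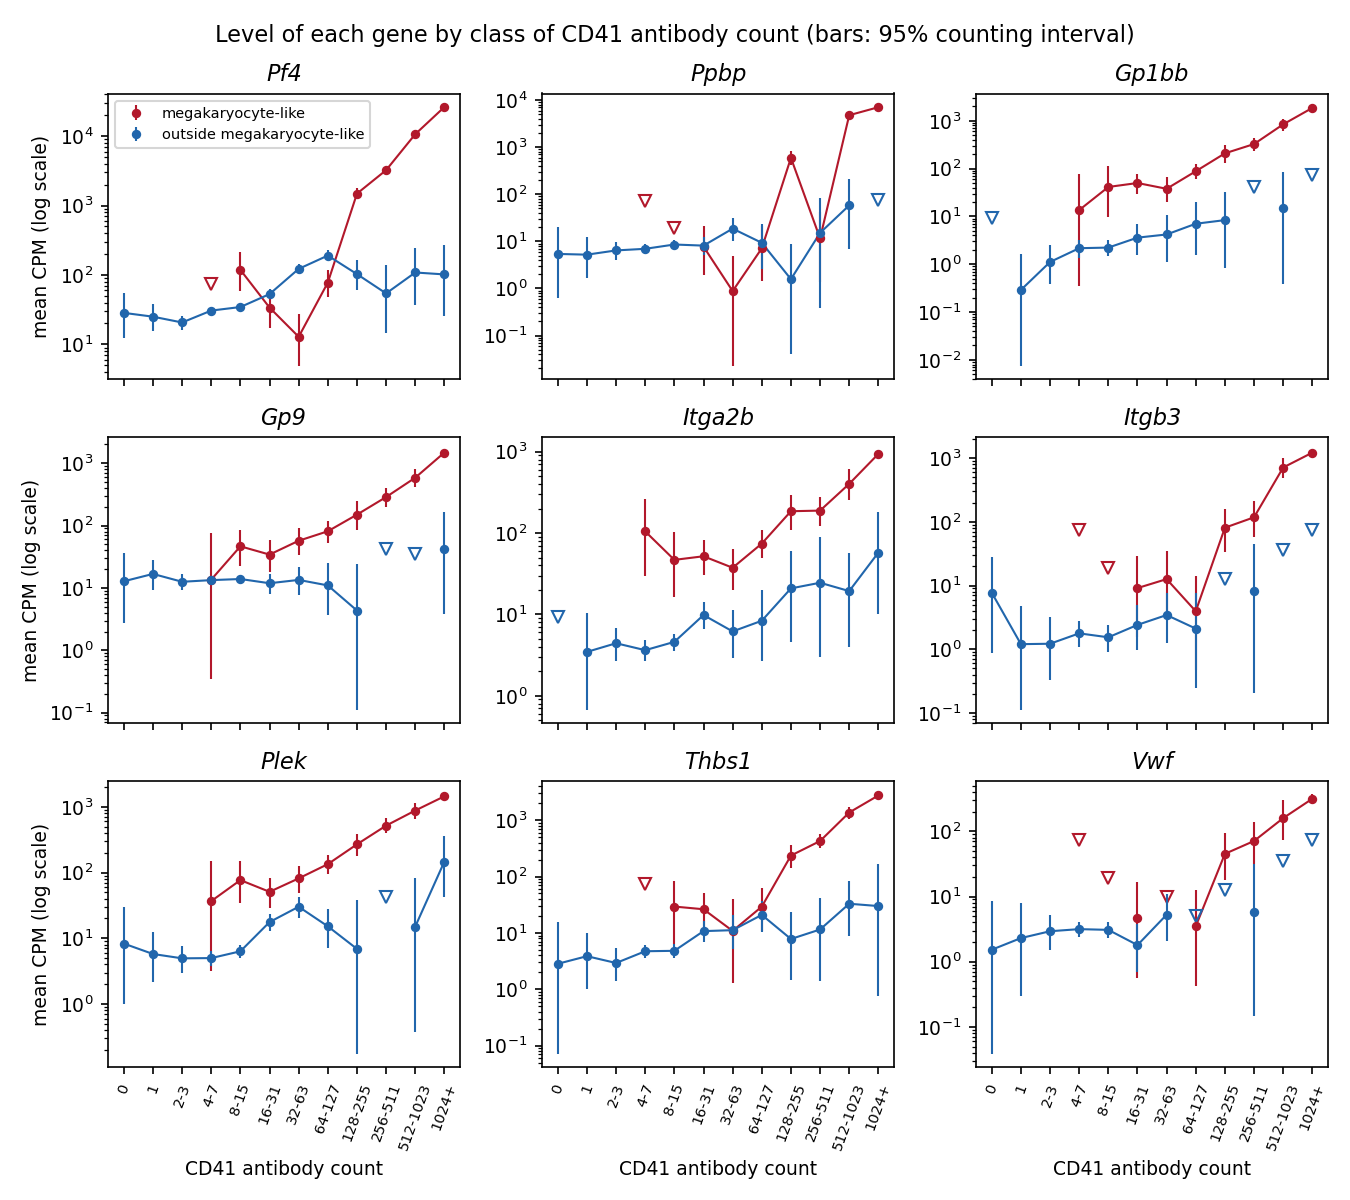
Mean level of each gene (CPM, log axis) in classes of CD41 antibody counts that double in width, for megakaryocyte-like cells and for all other cells, with 95% counting intervals. Classes of fewer than 5 cells are left out, lines break at classes with 0 UMIs, and open triangles are the upper limits there. Pf4 of the megakaryocyte-like cells steps from 77.6 to 1486 CPM between the classes of 64 to 127 and 128 to 255 counts, while Itga2b goes from 74.2 to 186 CPM. The megakaryocyte-like cells here include those that separate as mast or basophil-like at the finer resolution, with a median of 41 CD41 counts.

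Among single cells at the top of the CD41 range, Ppbp was the gene most often without a UMI. Of the 54 cells at 1024 counts or more, 54 had a UMI of Pf4 and of Gp1bb, 53 of Itga2b, of Itgb3 and of Plek, 51 of Thbs1, 50 of Gp9, 47 of Vwf and 40 of Ppbp. Ppbp ranged from 0 to 35164 CPM with a median of 1708 CPM, and Pf4 from 248 to 60888 CPM with a median of 25537 CPM. All 9 genes were found together in 34 of the 54.

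The 299 cells were also split at their median of 73 CD41 counts, into 148 with 74 to 28778 counts (upper group) and 151 with 2 to 73 (lower group). All 9 genes were higher in the upper group, where 6.52% of 5673 genes were, with a median log2 fold of 4.07 against -0.03 over all genes tested. Only Gp9, Itga2b and Plek reached 50 UMIs in the lower group. The other genes of the 9 passed that limit only through the upper group, so the count is a description. The ratios fell into a wide range. They were 836 (365 to 2486) for Ppbp, 305 (207 to 469) for Pf4, 91.7 (24.96 to 764) for Vwf with 2 UMIs in the lower group, 68.0 (32.1 to 175) for Itgb3 and 62.3 (36.7 to 116) for Thbs1. They were lower for Gp1bb at 20.6 (14.7 to 29.6), Gp9 at 16.2 (11.997 to 22.5), Plek at 11.4 (8.54 to 15.4) and Itga2b at 8.99 (6.55 to 12.6).

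In the lower group the receptor genes, Plek and Thbs1 stood above the cells outside the cluster, whereas Pf4, Ppbp and Vwf did not. Pf4 was still at 37.2 CPM there, on 34 UMIs, and Ppbp at 3.78 CPM. Against all cells outside the megakaryocyte-like cluster, it had Gp1bb at a ratio of 18.7 (12.2 to 28.2), Itga2b at 10.6 (7.44 to 14.9), Plek at 9.09 (6.58 to 12.3), Itgb3 at 4.53 (1.69 to 10.1), Thbs1 at 3.67 (1.94 to 6.39) and Gp9 at 3.16 (2.27 to 4.29). Pf4 had a ratio of 1.0002 (0.648 to 1.48), Ppbp 0.480 (0.160 to 1.11) and Vwf 0.544, so that these genes were not detectably above the level of the other cells. The 193 mast or basophil-like cells of the finer resolution had Gp1bb at 65.2, Itga2b at 62.9, Plek at 91.0 and Ppbp at 4.02 CPM. Their Pf4, at 64.7 CPM, was above the cells outside the megakaryocyte-like cluster, with a ratio of 1.74 (1.37 to 2.18).

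**Figure D3:**
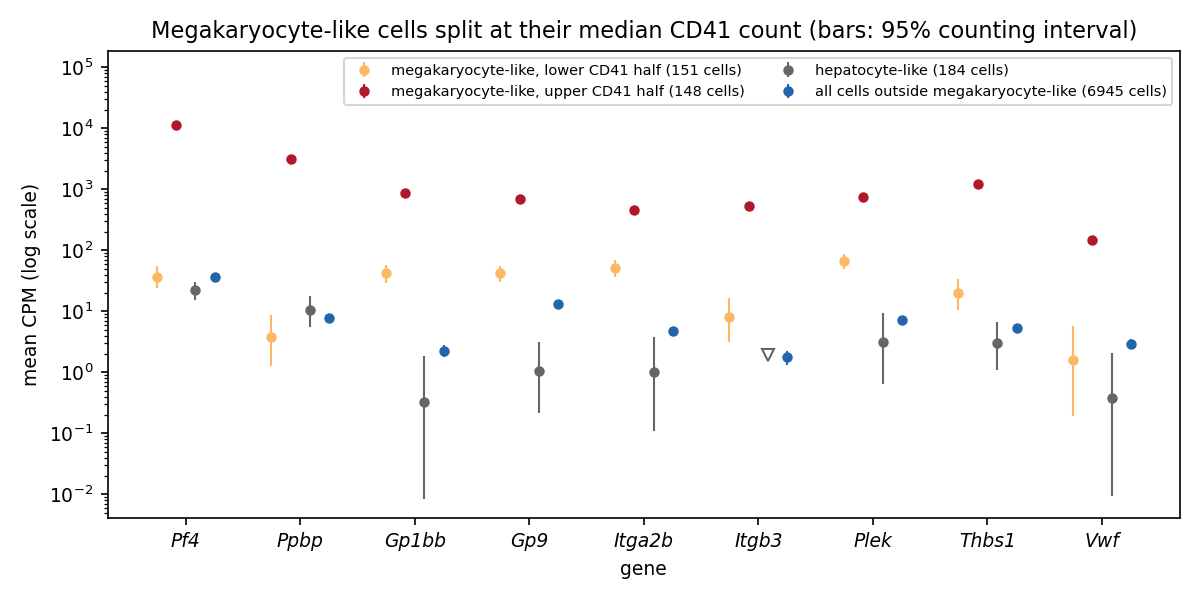
Mean level of each gene (CPM, log axis) with 95% counting intervals in the upper and lower CD41 groups of the megakaryocyte-like cells, in hepatocyte-like cells and in all kept cells outside the megakaryocyte-like cluster. The open triangle is the upper limit for 0 UMIs. Pf4 and Ppbp of the lower group (37.2 and 3.78 CPM) lie at the level of the other cells, whereas Gp1bb, Itga2b and Plek (42.0, 50.6 and 66.8 CPM) lie above it.

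Markers of other cell types moved with CD41 in these 299 cells. The 12 megakaryocyte markers summed to 3580 CPM in the upper and 323 CPM in the lower group, with 0 and 2 of them at 0, against 43.8 CPM in the other cells. The 6 mast cell or basophil markers summed to 407 and 266 CPM, against 8.25 CPM. A UMI of Cpa3, Mcpt8, Ms4a2 or Prss34, which encode a mast cell carboxypeptidase, basophil and mast cell proteases and a chain of the IgE receptor, was found in 22 of 148 upper cells (14.9%, exact interval 9.56 to 21.6%) and 47 of 151 lower cells (31.1%, 23.8 to 39.2%). It was found in 1.41% of the other cells. Also higher in the upper group were the summed endothelial markers, 143 against 17.1 CPM (1 and 3 of 7 at 0). So were the macrophage markers, 66.8 against 21.3 CPM (0 and 1 of 9), and the hepatocyte markers, 613 against 285 CPM (none of 10 in either). The other cells had sums of 28.6, 171 and 2869 CPM. Of the endothelial markers Esam, Kdr and Tek were raised in the 299 cells, with 135, 42 and 36 UMIs. Cdh5, Stab2, Lyve1 and Emcn were not raised, with 2, 1, 10 and 0 UMIs. The 7 early progenitor markers summed to 585 and 1103 CPM and the 6 CEP markers to 231 and 559 CPM, higher in the lower group. The part of mast cells or basophils and of the other cell types in the result was not tested.

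With all cells that had such a UMI left out, 9 of 9 genes were still higher in the upper group, with ratios of 243 (169 to 365) for Pf4 and 9.23 (6.75 to 12.9) for Itga2b. These UMIs do not mark all cells of the finer mast or basophil-like cluster, which held 193 of the 299 cells. That cluster also raised 8 of 12 megakaryocyte markers, so its name does not settle what its cells are. The 104 lower cells without such a UMI had Gp1bb at 51.9 CPM, Itga2b at 57.8 CPM, Plek at 78.0 CPM and Pf4 at 51.2 CPM. The 47 with one had 20.1, 34.6, 41.8 and 6.41 CPM of the same genes. At the finer resolution the 92 megakaryocyte-like cells had a median CD41 of 1641 counts, Pf4 at 18175 CPM and Itga2b at 678 CPM. The 193 mast or basophil-like cells had a median of 41 counts, Pf4 at 64.7 CPM, Gp1bb at 65.2 CPM and Itga2b at 62.9 CPM. Among the 92 cells alone, the upper 46 over the lower 46 by CD41 had ratios of 3.98 (3.78 to 4.19) for Pf4, 2.83 (2.56 to 3.14) for Ppbp and 2.56 (2.001 to 3.32) for Itga2b, against 305, 836 and 8.99 in the 299.

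Across the 299 cells the rank correlation (Spearman) of CD41 with CPM was 0.75 for Pf4, 0.74 for Plek, 0.73 for Gp1bb, 0.72 for Itgb3, 0.70 for Thbs1, 0.66 for Vwf, 0.65 for Gp9, 0.60 for Itga2b and 0.56 for Ppbp. The same cells gave 0.25 for CD41 with total UMIs and 0.087 with the other antibodies. These cells share 1 library, and the values are descriptions. The gene that encodes CD41 ranked eighth of the 9. Outside the megakaryocyte-like cells the 9 values lay between 0.01 and 0.11.

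Outside the megakaryocyte-like cells CD41 followed fewer of the genes. Among 192 CD41-high and 3701 CD41-low cells of the other clusters, 7 of the 9 genes had enough UMIs to be compared. Of these 2 were higher, Pf4 and Plek, and none was lower, where 12.3% of 9901 genes were higher and 2.31% lower. Pf4 was at 127 against 28.0 CPM, a ratio of 4.53 (3.75 to 5.45), and Plek at 21.0 against 5.09 CPM, a ratio of 4.13 (2.502 to 6.59). With macrophage-like and myeloid-like cells left out, the Pf4 ratio was 2.23 and 1 gene of the 9 was higher.

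Itga2b itself was at 12.7 against 3.74 CPM in these cells, a ratio of 3.41 (1.86 to 5.90) that did not reach the fold limit with 10 CPM added. It was 2.14 (0.867 to 4.51) without the cluster led by Mest, Sparc and Serpinh1. Thbs1 had a ratio of 3.82 (2.26 to 6.23), Ppbp 1.41 (0.637 to 2.76) and Gp9 0.684 (0.339 to 1.24). Vwf had 1 UMI in the CD41-high cells and 3.03 CPM in the CD41-low cells. The CD41-high cells had 14.8 Pf4 UMIs (8.28 to 29.3) for each Ppbp UMI, between the megakaryocyte-like and macrophage-like values. They also had high counts of other antibodies, with medians of 52.5 for CD45R, 30 for CD3e and 27 for Ly6G/6C, and 22.9% of them had control IgG. The part of general antibody binding in these ratios was not tested.

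The same split was made with each of the other antibodies except the control IgG, beside the share of all genes that passed the same fold. For the control IgG the 247 cells with at least 1 count were compared with the 6997 cells with none. All 9 genes were higher for Ly6G/6C (9.69% of all genes), CD45R (9.52%), CD3e (6.86%) and CD44 (18.6%), with median folds of 5.76, 6.93, 5.73 and 7.52, and CD41 gave a median fold of 22.0. Megakaryocyte-like cells made up 5.46% to 13.2% of the cells high for those 4 antibodies, against 47.4% for CD41. None of the 9 was lower for these 4, where 0.551%, 0.53%, 0.038% and 3.32% of all genes were. CD11b placed 2 genes higher and none lower (14% and 3.44% of all genes), and the control IgG 4 higher and none lower (1.76% and 0.0178%). With the progenitor receptor cKit no gene was higher and 3 were lower (25.2% and 4.25%). With the erythroid antibodies none was higher, 8 were lower for Ter119 (2.06% and 41.3% of all genes higher and lower) and 7 for CD71 (2.31% and 10.2%).

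The erythroid stages of the study run from S0-low through S0-medium, S1, S2 and S3 to S4/S5 and were set from Ter119 and CD71 counts among cells with low summed lineage antibodies. CD41 is one of these antibodies, so the limit left out 364 of the 365 CD41-high cells and 201 of the 299 megakaryocyte-like cells (67.2%). The 98 megakaryocyte-like cells within it had Pf4 at 51.6 CPM. Of the 9 genes, 3 differed by a ratio of CPM + 10 of at least 2 between their highest and lowest stage, Pf4, Gp9 and Plek, where 62.5% of 10183 genes did.

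Gp9 was highest in the middle stages, with 10.9, 10.1, 16.8, 24.5, 17.9 and 4.51 CPM from S0-low to S4/S5. The S2 level was 5.44 (3.20 to 9.95) times the S4/S5 level. Per cell the Gp9 count was 0.165 UMIs in S2 and 0.0186 in S4/S5, against 0.0163 in hepatocyte-like cells. Vwf, the ligand of the same complex, was at 1.39, 4.69, 7.496, 4.42, 2.05 and 0.995 CPM, with S1 at 7.54 (2.62 to 30.2) times S4/S5. Each was highest in S1 or S2 and lowest in S4/S5.

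Itga2b, Gp1bb and Plek were highest in S0-low, the stage that held 95 of the 98 megakaryocyte-like cells. Itga2b was at 9.16, 5.24, 5.64, 4.25, 4.39 and 1.89 CPM, with S0-low at 4.85 (2.16 to 13.3) times S4/S5. With the megakaryocyte-like cells left out, Itga2b in S0-low was at 5.79 CPM (4.25 to 7.69), like S0-medium and S1, and its ratio to S4/S5 was 3.06 (1.33 to 8.53). Gp1bb was at 6.26 CPM in S0-low and 0.469 CPM in S1, and without those cells the S0-low level was 3.69 CPM (2.34 to 5.53) and the ratio 7.87 (2.63 to 32.9). Plek was at 14.2 CPM in S0-low and 1.21 CPM in S1, and without those cells at 10.1 CPM (7.78 to 12.9) in S0-low, a ratio of 8.36 (3.83 to 21.7). So all 3 genes were lower in S0-low without the megakaryocyte-like cells, and Gp1bb and Plek still stood above S1. S0-low is set by low Ter119 and CD71 and can hold cells that are not erythroid. The cluster led by Cd34, Lsp1 and Emb had medians of 5 for Ter119 and 25 for CD71. Plek was at 0.274 UMIs per cell in it, against 0.0853 in S0-low. Its part in the Plek level of S0-low was not tested. S0-low cells had a median CD41 of 6 counts, within the range of 6 to 8 over all stages.

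In CPM and within the lineage limit, Pf4 was highest in the last stages, with 24.4, 16.6, 15.2, 28.2, 47.4 and 48.5 CPM, and S4/S5 was at 3.19 (2.38 to 4.32) times S1. The 201 megakaryocyte-like cells above the limit had Pf4 at 8358 CPM. With CD41 left out of the limit, Pf4 in S4/S5 was compared with S1 only and not with S0-low. Cells of S4/S5 held fewer UMIs in all, a mean of 4265 against 10158 in S1. Counted per cell, Pf4 was at 0.206 UMIs in S4/S5 and 0.143 in S1, a ratio of 1.44 (1.11 to 1.89). For Ppbp the ratio was 3.10 (1.99 to 4.86) in CPM and 1.66 per cell over its lowest and highest stages, and for Thbs1 3.09 in CPM and 1.12 per cell. The direction of both depended on the lineage limit: with CD41 left out of it the same ratios in CPM were 0.132 for Ppbp and 0.763 for Thbs1, and with no limit that of Ppbp was 0.330. The ratios of these 3 genes were thus smaller per cell than in CPM, and the S2 to S4/S5 difference of Gp9 was not. Per cell, all 3 genes stayed below the hepatocyte-like level in each stage. The highest stage levels were 0.225 UMIs for Pf4, 0.0617 for Ppbp and 0.0308 for Thbs1. Hepatocyte-like cells had 0.266, 0.114 and 0.0380, at a mean of 11873 UMIs in all.

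**Figure D4:**
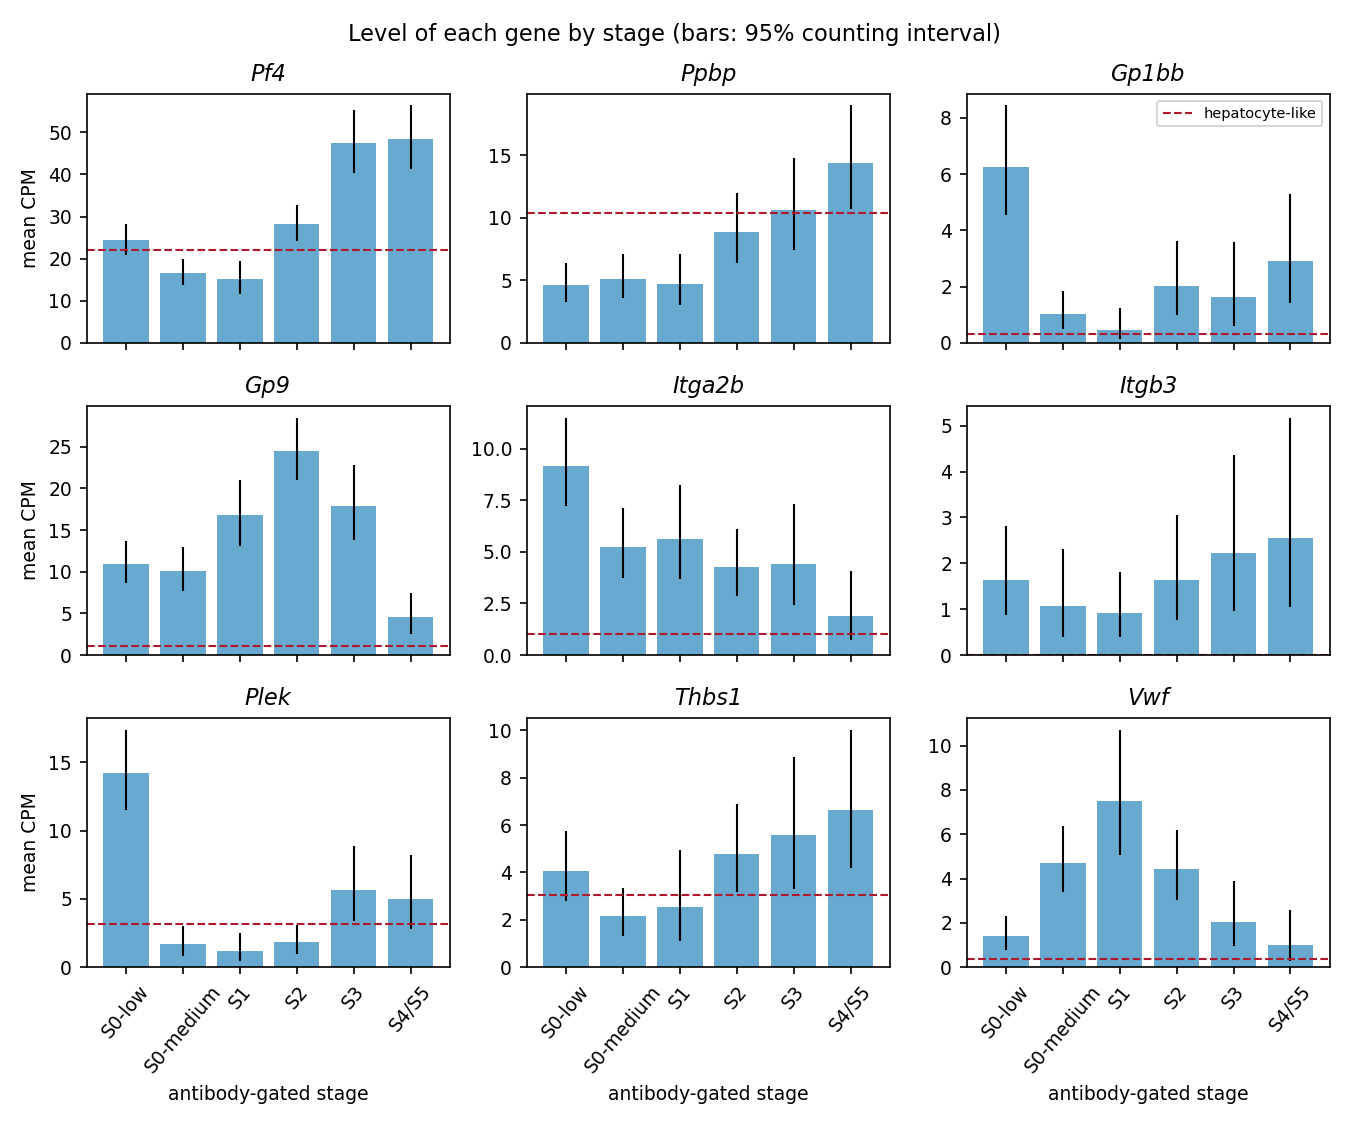
Mean level of each gene (CPM) with 95% counting intervals in the 6 erythroid stages, in order of maturation, with the level in hepatocyte-like cells as a dashed line (at 0 for Itgb3). Gp9 peaks at 24.5 CPM in S2, Vwf at 7.496 CPM in S1, Itga2b, Gp1bb and Plek are highest in S0-low, and Pf4 and Ppbp are highest in S4/S5. With CD41 left out of the lineage limit the order turns for Ppbp, and Pf4 in S4/S5 was not compared with S0-low there. Hepatocyte-like cells held more UMIs than the stages (median 12969 against 3944 in S4/S5). Counted per cell, Pf4, Ppbp and Thbs1 were below the hepatocyte-like level in every stage.

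A list of 50 other platelet and megakaryocyte genes moved with CD41 in the same cells. Of 48 with enough UMIs, 42 were higher in CD41-high than in CD41-low cells, where 12.4% of all genes were, and none was lower. The list was chosen with earlier results of these data known, so its counts here and below are descriptions. By role, 11 of 11 receptor genes were higher, 6 of 7 of integrin signalling, 10 of 11 of granule cargo and biogenesis, 5 of 5 of the cytoskeleton, 3 of 3 enzymes and 7 of 11 transcription factors. Gp1ba, which encodes the ligand-binding chain of the Gp1bb and Gp9 complex, was at 29.9 against 0.341 CPM, and the tetraspanin gene Cd9 at 622 against 18.5 CPM. Rap1b, a small GTPase that switches on integrins, had a ratio of 8.63 and was the more widely expressed, at 1378 against 160 CPM.

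Other genes moved with CD41 as well, some of other cell types. Besides these 9 genes, the 5 most raised in CD41-high over CD41-low cells were Mest (590 against 4.95 CPM), a gene of growing mesoderm, and the neutrophil genes Stfa1, Camp, S100a8 and S100a9, the last at 1311 against 42.1 CPM. Among the most lowered were the erythroid genes Hbb-bh1 (49.1 against 669 CPM), Trim10, Alas2 and Fech. With the megakaryocyte-like cells left out the same neutrophil genes were higher still, S100a9 at 2468 CPM. The CD41-high cells were thus a mixture in which 47.4% were megakaryocyte-like.

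Transcription factors that red cells also use did not reach the fold limit. Ratios were 0.766 for Gata1, 0.648 for Gfi1b, 0.998 for Zfpm1 and 1.32 for Nfe2, whereas Gata2 had 24.8 and Fli1, an ETS factor, 21.9. Outside the megakaryocyte-like cells Gata1, Gfi1b and Zfpm1 were lower with CD41 at ratios of 0.308, 0.227 and 0.415, the 3 lower genes among 39 of the list compared there, of which 19 were higher (12.3% of all genes). Within the megakaryocyte-like cells 31 of 42 list genes were higher in the upper CD41 group (6.52% of all genes) and none lower. There the factors Fli1, Mef2c and Zfpm1 were higher (3.09, 3.72 and 2.25), and Gata2 was at 0.528. Sox4, Hmga2, Bcl11a and Myb, which are known from early progenitors, were lower in the upper group, with ratios of 0.207, 0.213, 0.229 and 0.255.

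Over the 17 clusters and 11229 genes, the genes whose level pattern was most like that of Itga2b (Pearson r of log2(CPM + 10)) were Slc18a2, Treml1, Pde3a, Mrvi1 and Rab27b, with r from 0.98 for Slc18a2 to 0.96. For Ppbp they were Slc6a4, Cd226, Gp6, Gnaz and Pdgfb, with r from 0.99 for Slc6a4 to 0.98. Among the 9 genes, Itga2b and Gp1bb had r = 0.97, and Pf4 and Ppbp r = 0.86. The clusters share 1 library and differ in depth, and these values are descriptions.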

How the data were processed

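The authors mapped cDNA reads to mm10 with Cell Ranger, counted antibody barcodes with CITE-seq-Count and deposited raw UMI counts per gene and cell and raw counts per antibody and cell. Of the deposited antibody reads 1.05% matched no barcode and 4.94% had a bad structure, and these rows were left out. Whether antibody counts were collapsed by UMI is not given in the sources used here. No column stayed unmapped to a sample.

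The study's quality limits (300 and 5000 genes, 9% mitochondrial UMIs) left out 508 cells, and 128 called doublets were removed (Scrublet in scanpy 1.11.5, expected rate 6%). Clusters were made from 2000 variable genes without the 9 members, 16 principal components, 30 neighbours and resolution 0.8. A cluster was named when 3 of its 10 leading genes were markers of a type, or when the share of that type's markers raised by log2 0.5 led the next type by 0.25; this naming rule was set after the clusters were seen. Cell types rebuilt in this way may differ from those of the study.

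Levels are mean CPM over cells with 95% Poisson intervals for weighted counts. Shares have exact binomial intervals. A level of 0 allows up to 3 counts. Free RNA, PCR and capture are not covered by any interval. A gene counted as higher or lower at a 2-fold ratio of mean CPM + 10 with at least 50 UMIs in the compared cells. The pseudocount understates changes of low genes. Stages used a lineage limit of 73.6 summed antibody counts (median plus 2 scaled median absolute deviations of CD41, CD45R, CD3e, CD11b and Ly6G/6C; 6160 cells within it) and k-means classes of Ter119 and CD71, because the positions of the study's gates are not given in the sources used here. For shares of cells, each cell was thinned to 2000 UMIs, and no cell was shallower. There was 1 library, so no test between conditions was possible and no p-value is given.

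The members, the list of 50 other genes and the markers were chosen with earlier results of these data known. Genes named in the text were the members, that list, the genes most changed with CD41 and the 5 most like Itga2b and Ppbp; the genes lowest in the upper CD41 group, the other antibodies and the 5 largest cells were chosen after their values were seen. Some genes that this rule covers are not reported here. Scripts were tested on simulated data. Tools were Python 3.11.15, numpy 2.4.6, scipy 1.17.1 and pandas 2.3.3.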

Additional observations from a re-analysis of the deposited data

Results flagged for a closer look

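The quality limits left out cells in which the members were above the hepatocyte-like background, and these cells entered no comparison above. The 5 cells with over 5000 genes had Pf4 at a mean of 14900 CPM (14354 to 15513), against 22.1 CPM in hepatocyte-like cells. Their 2577 Pf4 UMIs equalled 13.3% of the Pf4 UMIs of all kept cells, and their Ppbp UMIs 17.5%. The signal lay in 2 of the 5. One had 18347 CD41 counts, 35550 UMIs, Pf4 at 40141 CPM and Ppbp at 23376 CPM. The other had 7789 CD41 counts, 33355 UMIs, Pf4 at 34418 CPM and Ppbp at 240 CPM. The remaining 3 had Pf4 between 0 and 40.4 CPM and CD41 counts of 7, 24 and 656, and the cell with 7 was the only called doublet of the 5. With these cells kept, all 9 genes were higher in CD41-high cells and the Itga2b ratio was 49.4 (38.6 to 63.9).

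The 481 cells with over 9% mitochondrial UMIs had Pf4 at 306 CPM (929 UMIs) and Itga2b at 43.7 CPM (137 UMIs), and 106 of them had CD41 counts at or above the limit for CD41-high cells. Hepatocyte-like cells had 22.1 CPM of Pf4 and 2 UMIs of Itga2b. The part of damaged cells in these levels was not tested.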

How the results depend on the processing

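No paired analysis was possible because there was 1 library and no replicate numbers. The count of 9 of 9 genes higher with CD41 over all kept cells held under all 14 alternatives, and within the megakaryocyte-like cells it was 8 or 9 under all 14. Outside the megakaryocyte-like cells the count of 2 was the least stable of these. It was 1 with CPM pooled over cells, with a denominator free of globin genes and with cells thinned. It was also 1 with macrophage-like and myeloid-like cells left out. It was 4 with a pseudocount of 1 CPM and with the 98th percentile of CD41. At resolution 1.2, where fewer cells were called megakaryocyte-like, it was 5. With all deposited cells it was 8. There 60 cells were called megakaryocyte-like, and a cluster of 629 cells stayed unnamed although megakaryocyte markers scored best in it (8 of 12 raised). The share of all genes was not computed under the alternatives. Against hepatocyte-like cells 9 genes were higher, but only 3 when the lower CD41 group alone was used. Only Pf4, Gp9, Itga2b and Plek then had enough UMIs to be compared, and Pf4 was not higher. Gp1bb, at 42.0 against 0.33 CPM on 47 and 1 UMIs, fell short of that limit. Ppbp then had a ratio of 0.365 (0.106 to 1.07), also on too few UMIs. The stage count of 3 was 8 with the lineage limit set without CD41, 8 with no lineage limit and 1 as UMIs per cell. With the limit set without CD41 the Ppbp ratio of S4/S5 over S0-low was 0.132 and the Thbs1 ratio of S4/S5 over S0-medium 0.763, and with no limit the Ppbp ratio was 0.330; these 2 settings let CD41-high cells into the stages. Of single-gene ratios under alternatives, 126 of 126 over all cells and 126 of 126 within the megakaryocyte-like cells stayed above 1, as did 89 of 90 against hepatocyte-like cells, 127 of 162 outside the megakaryocyte-like cells and 77 of 81 between stages. The alternatives that leave out cell types, cells with mast or basophil UMIs, the limit of 5000 genes or the upper CD41 group, and the lineage limit on the log scale, were chosen after seeing the data.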
